A study of Mus musculus with 4 samples.

Results

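Arterial endothelial cells (ECs), the cells that line the arteries and arterioles of the brain, were taken from single-cell transcriptomes of brain vascular fragments by the genes that each cell showed. Of 19809 barcodes in the counts, 17999 had more than 500 genes and under 10% mitochondrial UMIs (unique molecular identifiers, each standing for 1 captured mRNA). A cell counted as endothelial when at least 3 of *Cldn5*, *Flt1*, *Pecam1*, *Cdh5*, *Kdr* and *Tie1* had a UMI and when *Pdgfrb*, *Vtn*, *Acta2* and *C1qb*, genes of pericytes, smooth muscle and microglia, had fewer than 3 UMIs together. It counted as arterial when at least 3 of 7 arterial genes (*Gkn3*, *Bmx*, *Mgp*, *Fbln2*, *Stmn2*, *Egfl8* and *Clu*) and at most 1 of 6 venous genes (*Adgrg6*, *Ch25h*, *Lrg1*, *Ackr1*, *Il1r1* and *Nr2f2*) had a UMI. This gave 1283 arterial cells, 8.60% of 14924 ECs and 7.13% of all cells kept. The 23 genes of the rule chose the cells. Their values, and any level in arterial cells set beside the other 13641 ECs, are therefore given as a description without a test.

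The cells came from 4 mice of 3 months, 2 *Angpt2*-WT (*Angpt2*+/+, here WT1 and WT2) and 2 *Angpt2*-KO (*Angpt2*-/-, here KO1 and KO2) from heterozygous breeding. The first mouse of each genotype was female and the second male, so the replicate number and the sex cannot be told apart. The knockout was constitutive: Pgk-Cre had removed a floxed exon of *Angpt2* in the germ line and the allele had been backcrossed to C57BL6/J, so that all cell types carried the deletion from development on, and no agent was given to either genotype. Vessel fragments were pulled from digested brain tissue with beads against PECAM1, which favours ECs, and each mouse gave 1 library read from the 3′ ends of mRNA. Such reads need not cover the deleted exon, and *Angpt2* UMIs therefore do not check the genotype.

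Blood leaves the heart through arteries, whose ECs face high pressure and pulsatile flow, rest on an elastic lamina and pass signals to the smooth muscle around them. Arterial identity in ECs is set by VEGF and Notch signaling, with the ligand DLL4 and the effector HEY1 among its best known parts. Angiopoietin-2 (ANGPT2) is a secreted ligand of the receptor TIE2, which is encoded by *Tek*, and is made by ECs of remodeling vessels.

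The arterial sums held 4322070 UMIs in 432 cells of WT1, 3823138 in 440 cells of WT2, 1794581 in 131 cells of KO1 and 2098133 in 280 cells of KO2. The median arterial cell held 8199.5 (WT1), 7113 (WT2), 9409 (KO1) and 5688 (KO2) UMIs, against 5234, 4536, 7502 and 3885 UMIs in the other ECs of the same mice. Arterial cells were thus deeper than other ECs in all 4 mice. KO1 stood apart, with the fewest cells and the deepest ones. Counts of calls are given with and without each mouse. For the genes followed through the fits without a mouse, values are given where leaving out a mouse ended a call or moved the value much. Other called genes, among them *Pcdh17*, *Mobp* and those under the other observations, have no such values, and their calls may rest on a single mouse. Between 0 and 13 barcodes were shared by any pair of libraries, and none of them belonged to arterial cells of both.

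Genes that the rule did not use marked the cells as arterial. *Sema3g*, a semaphorin gene of arterial endothelium (GRCm38 chr14:31217860-31230352, plus strand), was at 332, 338, 456 and 494 CPM (its UMIs per 1000000 UMIs summed) in arterial cells of WT1, WT2, KO1 and KO2. In the other ECs it was at 41.2, 34.5, 35.8 and 48.5 CPM in the same order. *Gja4*, which encodes the arterial gap junction protein connexin 37, was at 52.5, 62.3, 55.2 and 62.9 CPM in arterial cells and between 3.82 and 4.70 CPM in other ECs. *Vegfc* (chr8:54077606-54187096, plus strand), a ligand of VEGFR3, was at 175, 234, 178 and 237 CPM in arterial cells against 16.7, 21.3, 11.7 and 13.3 CPM in other ECs. Of 18 listed arterial identity genes outside the rule, 17 were higher in arterial cells than in other ECs of every mouse. The rule's own *Gkn3*, a gene of arterial ECs of the brain (chr6:87383256-87388935, minus strand), had a UMI in 73.8%, 78.4%, 47.3% and 69.6% of arterial cells. Its level was lowest in KO1, at 407 CPM against 716 (WT1), 1209 (WT2) and 737 CPM (KO2).

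The 20 genes with the highest ratio of arterial to other ECs, taken in the mouse where it was lowest, hold several kinds of product. *Nos1*, the neuronal nitric oxide synthase, stood at 65.5, 53.6, 23.4 and 82.5 CPM in arterial cells and at or below 2.63 CPM in other ECs. The group holds matrix genes (*Col18a1*, *Fbln5*, *Npnt*), genes of regulators, ligands and membrane proteins (*Hey1*, *Zeb2*, *Vegfc*, *Sema3g*, *Tmem100*), the calcium pump gene *Atp2a3*, the phosphatase gene *Alpl*, the lipoxygenase gene *Alox12* and the secreted factor gene *Cytl1*. Its other members are *Gja4*, *Syt15*, *Cdk19*, *Amd1*, *Rad54b*, *Sncg* and *Eps8l2*. The 8 genes lowest in arterial cells were *Slc38a5*, *Car4*, *Wnt5a*, *F5*, *Flrt2*, *Nrp2*, *Tmsb10* and *Fmo2*. *Slc38a5*, an amino acid transporter gene of capillary and venous ECs, was at 14.6, 30.1, 30.6 and 23.8 CPM in arterial cells against 262, 406, 214 and 261 CPM in other ECs. Of 11 listed capillary genes 9 were lower in arterial cells in every mouse, as were 8 of 12 venous genes.

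The threshold of 3 arterial genes lay within a graded series. ECs with at most 1 venous gene and 2 arterial genes, just outside the rule, numbered 218 (WT1), 287 (WT2), 124 (KO1) and 195 (KO2). Those with 3 arterial genes, just inside it, numbered 129, 125, 56 and 102. From the first class to the second, *Sema3g* went from 153 to 232 CPM in WT1, from 130 to 208 in WT2, from 128 to 258 in KO1 and from 196 to 315 CPM in KO2. It reached 393, 399, 636 and 598 CPM in cells with 5 or more arterial genes. The capillary transporter gene *Slc16a1*, which encodes the lactate carrier MCT1, ran the other way, from 728, 569, 460 and 431 CPM in ECs with none of the 7 genes to 160, 105, 164 and 110 CPM in those with 5 or more. Cells with more arterial genes were also deeper, with medians of 13292, 10977, 17740 and 11945 UMIs at all 7 genes against 5996, 5434, 7300 and 4865.5 UMIs at 3. A further 45, 89, 20 and 25 ECs had 3 or more arterial genes and were left out for more than 1 venous gene.

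**Figure D1:**
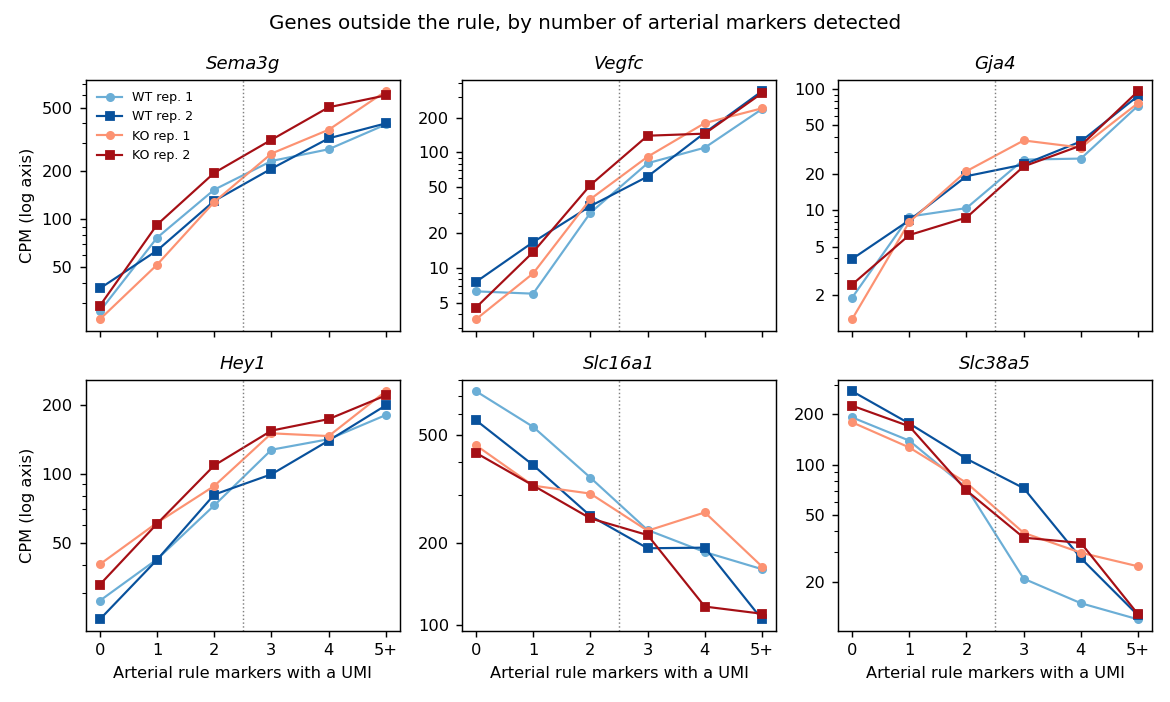
Levels (CPM, log axis) of 6 genes outside the rule in ECs with at most 1 venous gene, by the number of the 7 arterial genes with a UMI (0 to 5 or more), with 1 line per mouse and a dotted line at the threshold between 2 and 3. *Sema3g*, *Vegfc*, *Gja4* and *Hey1* are higher and *Slc16a1* and *Slc38a5* are lower in cells with 5 or more arterial genes than in cells with none, in all 4 mice.

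Among arterial cells, UMIs of some matrix genes were concentrated in a minority of cells. *Mgp*, an inhibitor of calcification and of BMP signaling, had a UMI in 60.6%, 65.9%, 55.7% and 62.1% of arterial cells, and the richest 10% of cells held 67.5%, 71.6%, 74.8% and 76.8% of its UMIs. *Eln*, the elastin gene, went from 40.8 to 210 CPM in WT1 between cells with 3 and cells with 5 or more arterial genes, from 69 to 314 in WT2, from 28 to 153 in KO1 and from 29 to 488 CPM in KO2. At least 2 of *Eln*, *Fbln5*, *Cytl1* and *Bgn*, a set chosen after its values were seen, had a UMI in 69 (16.0%), 63 (14.3%), 15 (11.5%) and 46 (16.4%) arterial cells. These cells were deeper, with medians of 9973, 10169, 12497 and 7574.5 UMIs against 8127, 6706, 9323.5 and 5362.5 in the rest, and the part of depth was not tested. Summed over all arterial cells, *Eln* was at 144 and 204 CPM in the *Angpt2*-WT mice and at 82.7 and 268 CPM in the *Angpt2*-KO mice, which gave both the lowest and the highest value. The log2 change of 0.02 (adjusted p = 0.989, edgeR) turned to −1.05 without KO2, where KO1 alone stood for the *Angpt2*-KO mice.

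Arterial cells made up a smaller share of ECs in the *Angpt2*-KO mice, but the spread between 2 mice per genotype sets a limit. The share was 12.9% in WT1 (exact 95% binomial interval 11.8 to 14.1, counting error only) and 8.82% in WT2 (8.05 to 9.64). It was 5.79% in KO1 (4.87 to 6.84) and 6.47% in KO2 (5.76 to 7.25). The means were 10.9% ± 2.88 (SD, n = 2) and 6.13% ± 0.481 (SD, n = 2), a difference of −4.72 percentage points. The groups did not overlap, and the 2-sided exact permutation p was 0.33, the smallest that 2 mice against 2 allow. For a second count, cells under 2000 UMIs were left out and the rest thinned to 2000 UMIs. Depth could then not set how many markers were seen, but it still set which cells were counted. ECs numbered 3154, 4422, 2135 and 3816, against 3350, 4988, 2261 and 4325 without thinning. The shares were 6.28%, 5.70%, 2.62% and 4.72%, with means of 5.99% and 3.67%. The difference was then −2.32 points and the ratio of the *Angpt2*-WT mean to the *Angpt2*-KO mean 1.63, against 1.77 without thinning. Leaving out WT1 gave −2.69 points and leaving out WT2 −6.76 points.

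The share depends on how many other ECs a library holds. For each EC with at least 3 of the 6 venous genes and at most 1 arterial gene there were 2.63 (WT1), 1.497 (WT2), 2.85 (KO1) and 3.08 (KO2) arterial cells. The venous cells were themselves fewer in the *Angpt2*-KO mice, at 5.62%, 6.46%, 2.16% and 2.25% of ECs outside the arterial class. Capture of vessel types by the beads was not measured and its part in these shares was not tested.

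**Figure D2:**
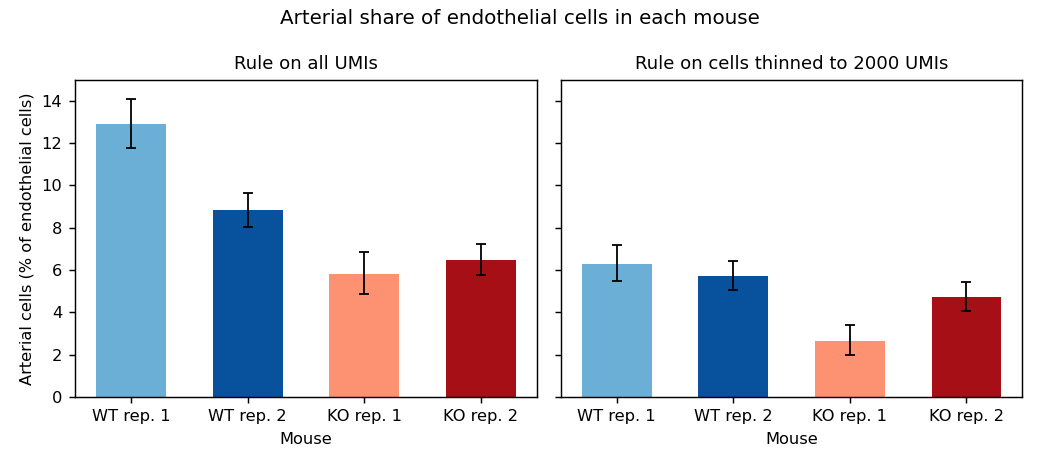
Arterial cells as a percentage of ECs in each mouse, with the rule applied to all UMIs (left) and to cells thinned to 2000 UMIs (right). Bars start at 0 and error bars are exact 95% binomial intervals. Both *Angpt2*-KO mice lie below both *Angpt2*-WT mice in each panel, with lower shares in all mice after thinning.

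To ask how the arterial transcriptome differed between genotypes, UMIs were summed over the arterial cells of each mouse and compared by the quasi-likelihood test of edgeR, where p-values were adjusted (Benjamini-Hochberg) over 10545 genes with a threshold of 0.05. Levels in this comparison are CPM scaled by TMM, which balances the composition of the libraries. In all, 50 genes were called (0.474% of those tested), 35 higher (0.332%) and 15 lower (0.142%) in *Angpt2*-KO mice, and 1019 genes had an unadjusted p under 0.05. The median log2 fold change of all genes tested was −0.01. For all 50 genes the 2 genotypes did not overlap, so that the female and the male pair differed in the same direction. So did 19.8% of genes tested with the *Angpt2*-KO mice above and 20.9% with them below. The p-values rest on the spread between 2 mice per genotype. The count ranged from 12 without WT1 and 29 without WT2 to 105 without KO1 and 167 without KO2. When the arterial rule was applied to cells thinned to 2000 UMIs, which left 198, 252, 56 and 180 arterial cells, 3 genes were called. Of 28 called genes described here by the naming rule, *Cpe* and *Mbp* were called in that fit.

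The gene with the smallest p was *Cpe* (chr8:64592542-64693054, minus strand), which encodes carboxypeptidase E, an enzyme that trims peptide hormone precursors. It was at 20.6 and 27.4 CPM in arterial cells of WT1 and WT2 and at 218 and 150 CPM in KO1 and KO2. Both *Angpt2*-KO mice were several times above both *Angpt2*-WT mice, and the log2 change was 2.94 (SE 0.20, adjusted p = 4.18e-06, edgeR). A UMI of *Cpe* was found in 12.7%, 14.1%, 48.1% and 21.8% of arterial cells, or in 3.6%, 3.3%, 19.5% and 10.6% after thinning to 2000 UMIs. No single cell held more than 15.4% of a mouse's arterial *Cpe* UMIs. *Cpe* was called in all 4 fits that left out a mouse. It is also a gene of astrocytes and was the 1 called gene among 5 tested astrocyte markers, beside 0.332% called higher over all genes tested. Their sum of 1701, 1536, 2315 and 1971 CPM was led by *Slco1c1*, a transporter gene that brain ECs express too, at 1637, 1472, 2043 and 1803 CPM. The defining astrocyte genes *Aqp4* and *Gfap* had 0 to 2 UMIs in each arterial sum, and *Gjb6* had 0.

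*Dkk2* (chr3:132085292-132180304, plus strand), which encodes a secreted modulator of Wnt signaling, was at 15.5 and 13.5 CPM in the *Angpt2*-WT mice and at 65.5 and 56.9 CPM in the *Angpt2*-KO mice. Its log2 fold change was 2.07 (SE 0.19, adjusted p = 0.000105, edgeR), and 1.13 (adjusted p = 0.222) with the rule on thinned cells. *Dkk2* was an arterial gene in both genotypes, since without TMM it stood at 15.04, 13.3, 68.0 and 57.2 CPM in arterial cells and at 0.949, 0.425, 2.33 and 3.27 CPM in other ECs. The share of arterial cells with a UMI was 7.2%, 6.8%, 29.0% and 19.3%, and 2.4%, 2.8%, 9.4% and 10.2% after thinning.

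Genes of angiogenic sprouts and tip cells, which lead growing vessels, were the list with the most calls. Of 24 tested members 5 were higher, none was lower and 19 were not called, with a median log2 fold change of 0.50, beside 0.332% higher over all genes tested and their median of −0.01. Arterial cells with a UMI of the members *Esm1* or *Apln*, described below, gave 2.32%, 7.47%, 38.7% and 18.6% of the arterial UMIs of WT1, WT2, KO1 and KO2, and their part in this list was not tested. *Ccn2*, a matrix-associated target of YAP and TAZ (chr10:24595442-24598683, plus strand), was at 14.1 and 32.7 CPM in the *Angpt2*-WT mice and at 85.4 and 114 CPM in the *Angpt2*-KO mice (log2 fold change 2.11, SE 0.27, adjusted p = 0.00257, edgeR). *Esm1*, which encodes the proteoglycan endocan and marks tip cells (chr13:113209659-113218098, plus strand), was at 13.9, 41.2, 102 and 95.3 CPM (log2 fold change 1.86, SE 0.31, adjusted p = 0.0127). Both kept their call without any 1 mouse, but without WT1 and WT2 the log2 fold change was 1.26 and 2.82 for *Esm1*, and without WT2 it was 2.82 for *Ccn2*. With the rule on thinned cells *Ccn2* stood at −0.26 and *Esm1* at 0.94 (adjusted p = 0.856 and 0.411). *Cxcr4*, the receptor of CXCL12 (chr1:128588199-128592293, minus strand), was at 6.69, 6.6, 31.7 and 20.9 CPM (log2 fold change 1.97, SE 0.28, adjusted p = 0.00635), with an adjusted p of 0.102 without WT1. *Prnd*, a prion-like gene of sprouting brain vessels, was at 1.195, 1.58, 6.98 and 10.4 CPM, with 72.7% of its UMIs in KO2 from 1 cell, and lost its call without WT1, WT2 or KO2 (adjusted p = 0.207, 0.256 and 0.112). The fifth member called was *Pcdh17*, a protocadherin gene, at 24.1, 29.6, 66.1 and 56.4 CPM. Fits without a mouse are not given for *Pcdh17*.

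The other named genes that rose are of mixed kind. *Itga4*, the α4 integrin subunit (chr2:79255426-79333123, plus strand), was at 7.41 and 11.6 CPM in the *Angpt2*-WT mice and at 55.3 and 42.2 CPM in the *Angpt2*-KO mice (log2 fold change 2.36, SE 0.24, adjusted p = 0.00029, edgeR). *Adgrl3*, the adhesion receptor latrophilin 3 (chr5:81020138-81825133, plus strand), was at 7.89, 7.39, 41.9 and 30.8 CPM (log2 fold change 2.24, SE 0.25, adjusted p = 0.000501). Both were called in all 4 fits that left out a mouse. *Epdr1* and *Gimap4*, an ependymin-related gene and a small GTPase gene, had log2 fold changes of 2.26 and 1.502 (adjusted p = 0.0105 and 0.0121) and lost their calls without WT1 (0.124 for each) or WT2 (0.112 and 0.0607). The same held for the glutathione transferase gene *Gstm2*, at 25.8, 24.5, 86.5 and 49.3 CPM, with an adjusted p of 0.0097 and of 0.124 and 0.0892 without WT1 and WT2. *Serpine2*, a protease inhibitor gene, was at 7.89, 14.3, 46.7 and 27.5 CPM (adjusted p = 0.0143, and 0.142 without WT1), and 1 cell held 44.8% of its arterial UMIs in KO1.

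**Figure D3:**
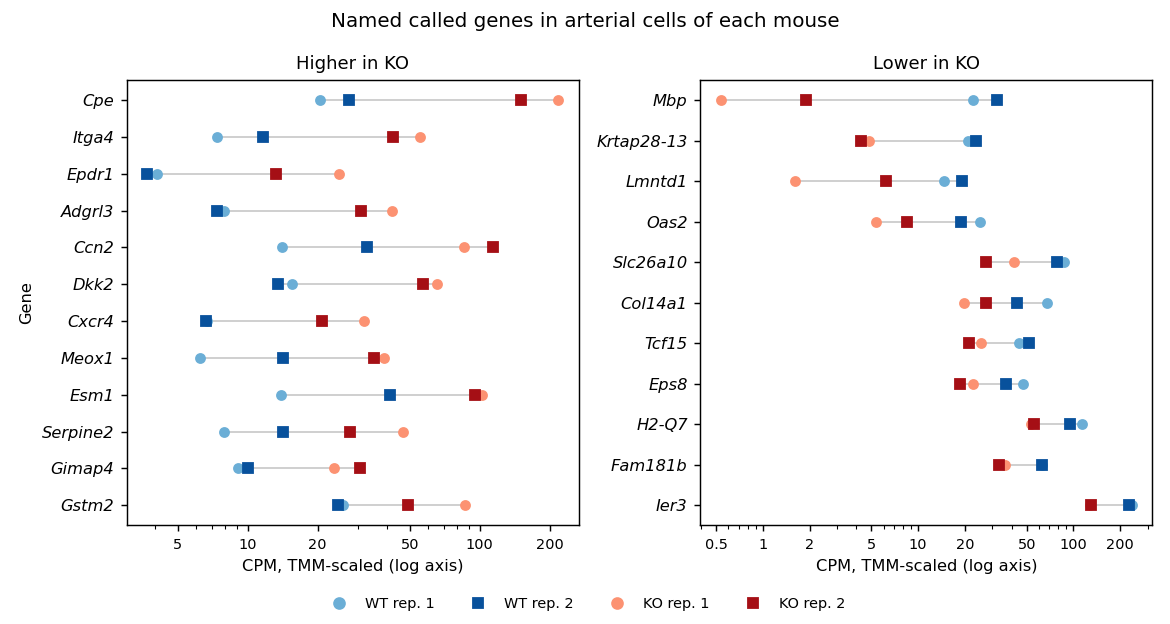
TMM-scaled CPM (log axis) in the arterial sums of each mouse for 12 genes called higher (left) and 11 called lower (right) in *Angpt2*-KO mice, with 1 point per mouse. In each gene both *Angpt2*-KO points lie on 1 side of both *Angpt2*-WT points, with the widest separation for *Cpe* among the higher genes and *Mbp* among the lower.

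Of 11 tested genes that mark capillaries, 2 were higher, none was lower and 9 were not called, with a median log2 fold change of 0.30, beside 0.332% higher over all genes. *Ivns1abp*, which encodes an actin-associated Kelch protein (chr1:151344477-151364422, plus strand), was at 97.8, 85.5, 273 and 188 CPM (log2 fold change 1.33, SE 0.17, adjusted p = 0.00257, edgeR) and kept its call without any 1 mouse. With the rule on thinned cells it was no longer called (log2 fold change 0.76, adjusted p = 0.233). *Meox1*, a homeobox gene, was at 6.22, 14.3, 38.7 and 35.1 CPM (log2 fold change 1.86, adjusted p = 0.0097), with an adjusted p of 0.0835 without WT1 and a log2 fold change of 2.56 without WT2. *Slc7a5*, an amino acid carrier gene, was at 365, 235, 376 and 293 CPM with no call (adjusted p = 0.855).

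Arterial identity genes outside the rule gave 1 call. Of 18 tested *Cxcr4* was higher, none was lower and 17 were not called, beside 0.332% higher and 0.142% lower over all genes tested. Their median log2 fold change was 0.18. *Sema3g* was at 343 and 341 CPM in the *Angpt2*-WT mice and at 440 and 492 CPM in the *Angpt2*-KO mice (log2 fold change 0.45, SE 0.15, adjusted p = 0.315, edgeR). *Edn1*, the gene of the vasoconstrictor endothelin-1, was at 526, 549, 519 and 932 CPM (adjusted p = 0.542). The Notch list gave no call among 18 genes (median 0.05), with *Notch1* at 340, 312, 387 and 377 CPM and its ligand *Dll4* at 199, 175, 225 and 204 CPM (adjusted p = 0.661 and 0.696). Of the rule's genes, given without a test, *Bmx* was at 273, 296, 270 and 344 CPM and *Mgp* at 1146, 1604, 769.7 and 2282 CPM.

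In the matrix around the vessel, 2 genes of the basement membrane rose, beside 0.332% called higher over all genes tested. *Nid1*, which encodes the laminin and collagen linker nidogen-1 (chr13:13437551-13512269, plus strand), was at 30.8, 35.9, 71.4 and 58.8 CPM (log2 fold change 0.96, SE 0.17, adjusted p = 0.022, edgeR). *Lama4*, the laminin α4 chain (chr10:38965515-39110188, plus strand), was at 54.5, 50.9, 98.3 and 95.8 CPM (log2 fold change 0.88, SE 0.15, adjusted p = 0.0127). Leaving out WT1 or WT2 ended both calls (adjusted p = 0.139 and 0.0558 for *Nid1*, 0.0835 and 0.0629 for *Lama4*). The other 22 of 24 genes for basement membrane and collagen processing were not called, with a list median of 0.37, and 16 of the 24 were higher in each *Angpt2*-KO mouse than in any *Angpt2*-WT mouse, as were 19.8% of all genes tested. *Col4a1*, the collagen IV α1 chain, was at 583, 539, 886 and 762 CPM (adjusted p = 0.177). None of 15 genes for elastic fibres and wall matrix was called (median 0.29). *Fn1*, the fibronectin gene, was at 834 and 774 CPM in the *Angpt2*-WT mice and at 1213 and 1269 CPM in the *Angpt2*-KO mice (adjusted p = 0.101).

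Of 20 genes for vasomotor control and gap junctions, *Gja1*, which encodes connexin 43 (chr10:56377330-56402513, plus strand), was the one called. It was at 110, 91.3, 204 and 154 CPM (log2 fold change 0.82, SE 0.16, adjusted p = 0.0271, edgeR), and leaving out WT1, WT2 or KO1 gave adjusted p of 0.124, 0.206 and 0.193. The list's median was 0.03, and over all genes tested 0.332% were called higher. Genes that respond to shear stress gave no call among 16 (median −0.06). *Klf2*, the flow-induced transcription factor, was at 2467, 2778, 2151 and 2025 CPM (adjusted p = 0.517).

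The receptor through which ANGPT2 acts did not differ between the genotypes beyond its spread. *Tek* (chr4:94739289-94874976, plus strand) was at 526, 509, 486 and 518 CPM in WT1, WT2, KO1 and KO2 (log2 fold change −0.04, SE 0.15, adjusted p = 0.949, edgeR). *Angpt2* itself (chr8:18690263-18741562, minus strand) was at 5.02, 9.501, 16.1 and 14.2 CPM of 3′ reads (log2 fold change 1.07, SE 0.34, adjusted p = 0.269). Without the cells with a UMI of *Esm1* or *Apln* it stood at 0.15 (adjusted p = 0.973). In the other ECs its log2 fold change was 2.00 (adjusted p = 0.00457), and the difference between the effects was not called (−0.88, adjusted p = 0.27). None of 10 genes for angiopoietin and TIE signaling was called (median 0.37). Of 10 VEGF genes none was called either (median 0.12). *Nrp1*, the neuropilin co-receptor of VEGF, came closest, at 193 and 231 CPM against 400 and 307 CPM (log2 fold change 0.74, SE 0.17, adjusted p = 0.075, edgeR). Without KO2, where KO1 alone stood for the *Angpt2*-KO mice, its log2 fold change was 0.94.

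Of the genes that fell, *Krtap28-13*, listed as a keratin-associated protein gene (chr1:83060930-83061921, plus strand), was at 21.0 and 23.5 CPM in the *Angpt2*-WT mice and at 4.83 and 4.27 CPM in the *Angpt2*-KO mice (log2 fold change −2.28, SE 0.30, adjusted p = 0.00313, edgeR), and the call held without any 1 mouse. *Ier3*, an immediate early gene (chr17:35821684-35822923, plus strand), was at 238, 227, 127 and 129 CPM (log2 fold change −0.86, SE 0.14, adjusted p = 0.0097, and 0.0835 without WT1). With the rule on thinned cells it stood at −0.25 (adjusted p = 0.782). *Slc26a10*, of an anion exchanger family (chr10:127171393-127180645, minus strand), was at 87.3, 78.9, 41.4 and 27.5 CPM (log2 fold change −1.28, adjusted p = 0.00768, and 0.0835 without WT1). *H2-Q7*, a non-classical MHC class I gene, was at 113, 94.5, 53.2 and 55.5 CPM (log2 fold change −0.93, adjusted p = 0.0127, and 0.124 without WT1). Its family holds near-identical copies whose reads can be split. *Tcf15*, a helix-loop-helix transcription factor gene, was at 44.7, 51.5, 25.2 and 21.3 CPM (log2 fold change −1.05, adjusted p = 0.022) and was called only when KO1 was the mouse left out.

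Of the remaining named genes that fell, *Oas2*, an antiviral sensor gene, was at 25.1, 18.7, 5.37 and 8.54 CPM (log2 fold change −1.64, adjusted p = 0.0268, edgeR). Leaving out WT1 or WT2 gave adjusted p of 0.181 and 0.0558. *Col14a1*, a fibril-associated collagen gene, was at 67.2, 43.0, 19.9 and 27.5 CPM and *Eps8*, an actin regulator gene, at 47.3, 36.7, 22.6 and 18.5 CPM (adjusted p = 0.038 and 0.0441, and 0.175 and 0.183 without WT1). *Eps8* was also lost without KO2 (0.10). *Lmntd1* was at 14.6, 19.3, 1.61 and 6.16 CPM and lost its call without WT1 or WT2 (adjusted p = 0.138 and 0.308). Its log2 fold change of −2.06 became −1.45 without KO1 and −3.34 without KO2. *Fam181b* was at 62.9, 62.3, 36.0 and 33.2 CPM (adjusted p = 0.035), and without WT1, WT2 or KO2 its adjusted p was 0.124, 0.0936 and 0.103. In each of these 5 genes both *Angpt2*-KO mice were below both *Angpt2*-WT mice, and each call depended on at least 1 mouse.

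In the immediate early and heat shock list 1 of 25 genes was lower (*Ier3*) and none higher, beside 0.142% lower and 0.332% higher over all genes tested. Its median log2 fold change was −0.34, and both *Angpt2*-KO mice lay below both *Angpt2*-WT mice in 15 of the 25, as in 20.9% of all genes tested. The median mitochondrial share of UMIs in arterial cells ran the same way, at 3.11%, 3.07%, 2.25% and 2.40%, and 287, 412, 56 and 102 barcodes had 10% or more. The part of cell quality in this list was not tested. *Jun* was at 2207, 2125, 1767 and 1647 CPM (adjusted p = 0.487, edgeR). None of 24 listed interferon response genes was called (median −0.21), a list that holds neither *Oas2* nor *H2-Q7*, with 11 lying below in both *Angpt2*-KO mice (again against 20.9% of all genes), and *Ifitm3* was at 1658, 2182, 1469 and 1466 CPM (adjusted p = 0.476). Axon guidance genes gave no call among 18 (median 0.31). Nor was any gene called among 27 for junctions, transport and the barrier (median 0.12), 21 for BMP, ALK1 and TGF-β signaling (0.08), 21 for Wnt and β-catenin signaling (0.04), 11 for leukocyte adhesion and inflammation (−0.04) and 11 venous identity genes (−0.04). *Slc2a1*, the glucose carrier of the barrier, was at 1619, 1673, 2014 and 2058 CPM (adjusted p = 0.539).

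RNA of other cell types was present in the arterial sums, and some of it moved with genotype. *Mbp*, the myelin basic protein gene, was at 22.5 and 32.2 CPM in WT1 and WT2 and at 0.537 and 1.90 CPM in KO1 and KO2 (log2 fold change −4.39, SE 0.45, adjusted p = 0.00029, edgeR), and the call held without any 1 mouse (−5.55 without KO2). Single cells held 36.2% (WT1), 58.2% (WT2), 100% (KO1) and 50.0% (KO2) of these UMIs. The *Angpt2*-KO values rest on very few UMIs, so that their shares do not describe a spread over cells. Of 8 oligodendrocyte markers 4 were tested, and *Mbp* and *Mobp* were called lower, beside 0.142% lower over all genes tested. Fits without a mouse are not given for *Mobp*. The 8 markers summed to 49.5, 64.3, 12.3 and 11.4 CPM. Choroid plexus markers summed to 615, 615, 172 and 912 CPM and were led by *Ttr*, at 499, 499, 49.6 and 784 CPM, with the lowest value in KO1. Erythroid markers summed to 9520, 10916, 8538 and 9082 CPM, led by *Hbb-bs*. Markers of pericytes summed to 123, 82.4, 186 and 50.5 CPM, of smooth muscle to 258, 261, 262 and 321 CPM, and of microglia and macrophages to 58.8, 61.7, 42.9 and 89.1 CPM. Markers of neurons, fibroblasts and lymphocytes each summed to under 24 CPM in every mouse. No gene of these lists other than *Mbp* and *Mobp* was called. The part of such RNA in the results was not tested.

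Arterial genes also had UMIs in barcodes of another cell type. Whether free RNA let any cell pass the rule was not tested. In barcodes with microglial genes (179, 133, 222 and 217, with medians of 4330, 3875, 6099 and 3287 UMIs), which should lack arterial genes, *Mgp* had a UMI in 7.26%, 3.01%, 2.25% and 3.23%. It was the highest of the 7 arterial genes there, against at least 55.7% in arterial cells. *Gkn3* was found in 3.35%, 1.504%, 0% and 1.84% of the microglial barcodes. The 0 of 222 in KO1 allows a share of up to 1.35% when a count of 0 is taken as up to 3, which is not an exact interval.

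The arterial gate took in cells with UMIs of *Esm1* or *Apln*, genes of angiogenic capillaries and tip cells. They were 8 of the arterial cells of WT1 (1.85%), 19 of WT2 (4.32%), 38 of KO1 (29.0%) and 34 of KO2 (12.1%), with 2.32%, 7.47%, 38.7% and 18.6% of the arterial UMIs. Median depth in them was 12334.5, 12285, 10953 and 7988 UMIs, against 8136.5, 6742, 9402 and 5395 UMIs in the other arterial cells. They carried fewer arterial genes on average in every mouse, 3, 4, 3.89 and 4.24 of 7 against 4.65, 4.77, 4.34 and 4.56. *Gkn3* was at 19.96, 217, 31.7 and 509 CPM in them and at 733, 1290, 644 and 790 CPM in the rest. Listed genes of the angiogenic capillaries of the knockout and of fenestrated ECs each had 1 member called, *Nid1* of 11 tested (median 0.57) and *Esm1* of 8 (median 0.13). Over all genes tested 0.332% were called higher. The first of these lists was chosen on these mice and its direction is no independent evidence.

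*Esm1* itself rose in the *Angpt2*-KO mice, so the genotype difference bears on which cells have such a UMI, and values with and without them are a description that does not locate that difference. *Cpe* was at 461 and 534 CPM in the cells of KO1 and KO2 with a UMI of *Esm1* or *Apln*, and at 78.1 and 62.7 CPM in those without. In the cells without, the *Angpt2*-WT mice had 20.1 and 28.6 CPM of *Cpe*, and edgeR called the gene (log2 fold change 1.47, adjusted p = 0.000691). *Dkk2* in the cells without was at 15.2, 14.1, 52.7 and 59.2 CPM. *Itga4* there was at 6.20, 10.7, 25.4 and 16.4 CPM, with a log2 fold change of 1.22 (adjusted p = 0.186). Over all genes, 34 were called without these cells, 18 of them higher, and 22 of the 34 were among the 50. Of the 28 called genes named by the rule, 16 were called without these cells. *Nid1* and *Lama4* were not, at log2 fold changes of 0.60 and 0.61 (adjusted p = 0.505 and 0.224).

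**Figure D4:**
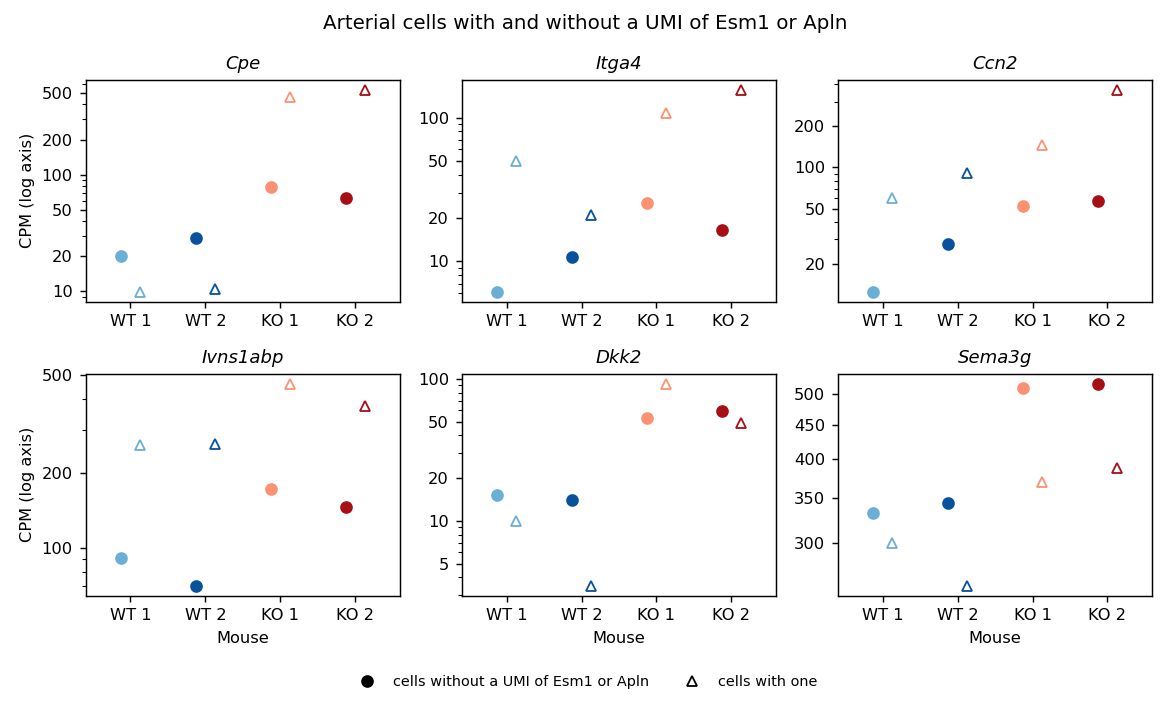
Levels (CPM, log axis) of 6 genes in arterial cells of each mouse, summed separately over cells without (filled circles) and with (open triangles) a UMI of *Esm1* or *Apln*. For *Cpe*, *Itga4* and *Ivns1abp* the cells with such a UMI lie higher in both *Angpt2*-KO mice. For *Cpe*, *Itga4* and *Dkk2* the *Angpt2*-KO cells without one also lie above their *Angpt2*-WT counterparts. *Sema3g* is lower in the cells with one.

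To ask whether the loss of *Angpt2* changed arterial cells and other ECs alike, the effects were compared in 1 edgeR fit with the mouse as a term. Both sums come from the same 4 mice and share their libraries. In other ECs alone 572 of 13515 genes were called (4.23%), 378 higher (2.8%) and 194 lower (1.44%). The effect differed between the kinds of cell for 212 of 13220 genes (1.6%), with a higher effect in arterial cells for 71 (0.537%) and a lower one for 141 (1.07%). The sums of other ECs hold more UMIs, so the shares called in the 2 kinds of cell are not comparable. The count of unequal effects was 121 without WT1, 135 without WT2, 361 without KO1 and 631 without KO2.

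*Gda*, the guanine deaminase gene (chr19:21391307-21473445, minus strand), was at 21.98, 24.3, 55.7 and 60.1 CPM in arterial cells and at 3.50, 3.19, 66.5 and 45.3 CPM in other ECs of WT1, WT2, KO1 and KO2. It rose in both, and the arterial effect was lower by 2.75 on the log2 scale (interaction −2.75, SE 0.23, adjusted p = 1.84e-06, edgeR). *S100a6*, a calcium-binding protein gene, was at 84.2, 140, 93.1 and 105 CPM in arterial cells, where the genotypes overlapped, and at 9.45, 8.74, 68.0 and 29.0 CPM in other ECs (interaction −2.53, adjusted p = 8.91e-05). *Cdh13*, which encodes T-cadherin, was at 84.5, 92.1, 109 and 133 CPM against 10.9, 6.52, 69.5 and 31.8 CPM (interaction −2.06, adjusted p = 0.000901). *Uchl1*, a ubiquitin hydrolase gene, and *Ica1l* had interactions of −1.85 and −2.34 (adjusted p = 0.00158 and 0.000215). Without KO1 and without KO2 the interaction was −1.79 and −3.23 for *S100a6*, −1.33 and −2.77 for *Cdh13* and −1.12 and −2.46 for *Uchl1*, and without WT1 it was −3.01 for *Ica1l*, each still called. In the *Angpt2*-WT mice these 5 genes were higher in arterial cells than in other ECs, and in the *Angpt2*-KO mice the other ECs came closer to the arterial level or passed it. UMIs of *Esm1* and of *Apln* were found in more of the other ECs of the *Angpt2*-KO mice, as given above. The part of such cells in the unequal effects was not tested.

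*Adm*, the gene of the vasodilator adrenomedullin, was at 10.4, 11.8, 6.13 and 12.9 CPM in arterial cells and at 18.3, 16.8, 89.3 and 40.1 CPM in other ECs. Its interaction of −2.03 (adjusted p = 0.00823, edgeR) became −0.99 (adjusted p = 0.071) without KO1 and −3.24 without KO2. *Cxcr4* rose in both kinds of cell, less in arterial cells, with an interaction of −1.48 (adjusted p = 0.00834). For *Cpe* and *Adgrl3* the arterial effect was the larger, by 0.97 and 0.95 on the log2 scale (adjusted p = 0.000641 and 0.0284).

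For 4 of 11 tested genes of the venous list the arterial effect was higher, and for none was it lower, beside 0.537% and 1.07% of all genes tested. *Vcam1*, the leukocyte adhesion molecule gene, was at 165, 239, 182 and 226 CPM in arterial cells and at 218, 238, 69.1 and 102 CPM in other ECs (interaction 1.41, SE 0.13, adjusted p = 3.61e-06, edgeR). It fell in other ECs (adjusted p = 0.0094), while its arterial values of the genotypes overlapped. *Vwf*, the von Willebrand factor gene, was another of the 4, at 1.12 (adjusted p = 3.77e-05). Venous cells were fewer among the other ECs of the *Angpt2*-KO mice, as given above, and the 6 venous genes summed there to 331, 386, 128 and 175 CPM. The part of fewer venous cells in these differences was not tested. Of 18 arterial identity genes 2 had a higher and 7 a lower arterial effect (0.537% and 1.07% of all genes), among the latter *Edn1* (−0.98, adjusted p = 0.00771) and *Cxcl12* (−0.65, adjusted p = 0.00771). Of 24 tip cell genes 6 had a lower arterial effect and none a higher one, against the same shares of all genes, and of 18 Notch genes *Dll4* (−0.57, adjusted p = 0.00218) and *Hey1* (−0.58, adjusted p = 0.0118) had a lower one and *Lfng* (0.91, adjusted p = 0.00992) a higher one. Shear response, barrier, interferon and Wnt genes gave no unequal effect.

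**Figure D5:**
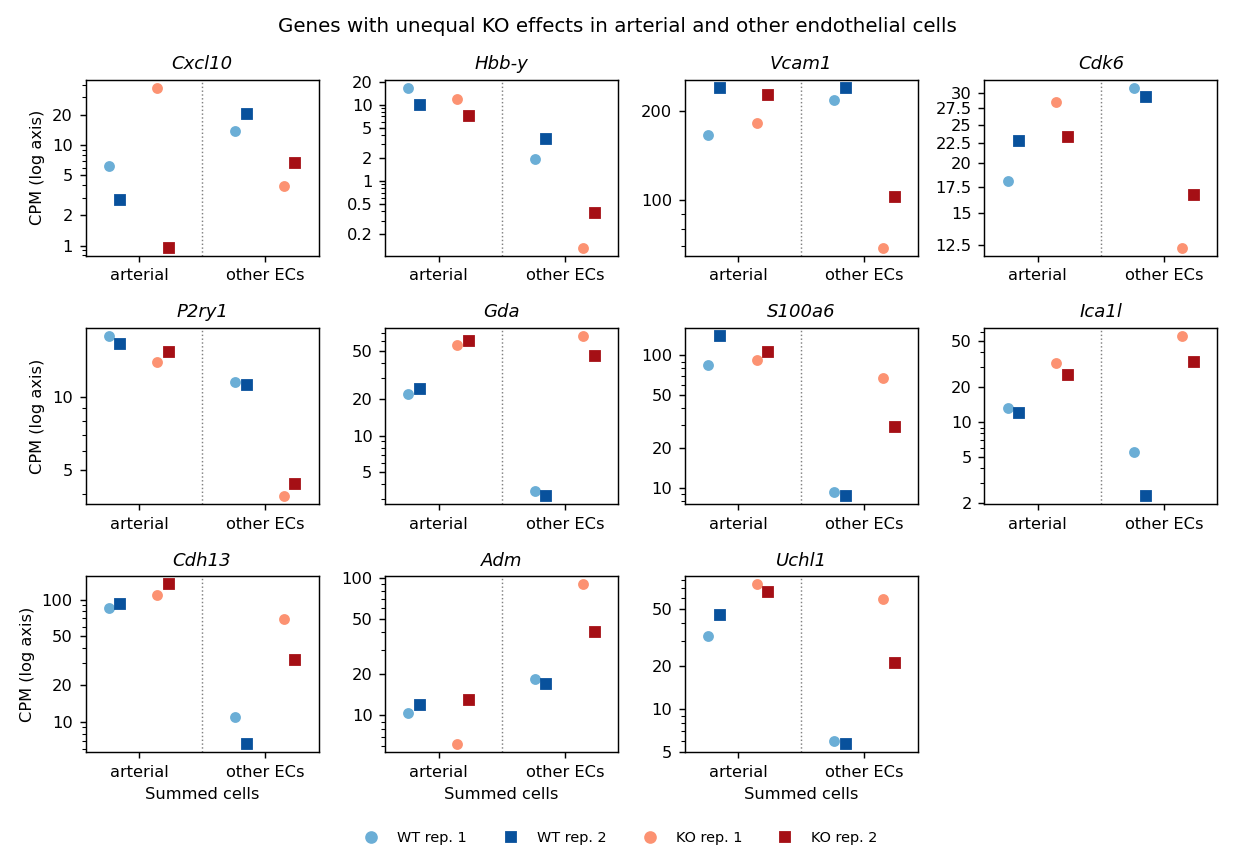
Levels (CPM, log axis) of 11 genes with unequal effects of genotype, in arterial cells (left of the dotted line) and other ECs (right) of each mouse. In the first 5 genes except *Cxcl10* the *Angpt2*-KO points are lower in other ECs but not, or less so, in arterial cells. In the other 6, from *Gda* on, they are higher in other ECs by more than in arterial cells. For *Cxcl10* a single cell gives the high arterial point of KO1, while that of KO2 (2 UMIs) lies below those of WT1 and WT2 (27 and 11 UMIs).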

How the data were processed

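Microvascular fragments of 4 brains were profiled with 10x 3′ v3.1 chemistry, 1 library per mouse. The deposited matrices hold raw UMI counts of genes in called barcodes, which the authors obtained from Cell Ranger (6.1.2 per the labels, 6.1.1 per the file headers) on mm10 (GRCm38), for 32286 features of which 1, a reporter sequence, had no UMI. No doublet caller was run, and nothing in the sources used here names a removal of doublets.

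Cells were chosen by the rule given in the results, in Python 3.11.15. The members, gene lists and tests were chosen with earlier results of these data known. UMIs were summed per mouse and kind of cell and tested with edgeR 4.0.16 in R 4.3.3 (quasi-likelihood test, default filter on low counts, TMM), without the 23 rule genes, with Benjamini-Hochberg adjustment and a threshold of 0.05. Genotypes were compared without a replicate block, and the effects in arterial and other ECs with the mouse as a term. Ratios of arterial to other ECs used log2(CPM + 1) and no test. On simulated counts for 10385 genes the genotype test recovered 61% of 2-fold and 96% of 4-fold changes with 11 false calls, and the test of unequal effects 65% and 82% with 3 false calls among 13019 genes. The simulated arterial and other sums of a mouse shared no difference from other mice, as real sums can. The false calls of the second test therefore do not gauge its error on the real sums.

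Named genes were the 12 with the largest rise and up to 12 with the largest fall among called genes with non-overlapping mice and a mean of at least 10 CPM, up to 4 per list, the 6 largest unequal effects each way, and the 20 highest and 8 lowest arterial to other ratios among genes with a mean of at least 50 CPM. *Angpt2*, *Tek* and *Nrp1* were always named, and other names were added after their values were seen. One gene of the rule is not reported here. Alternatives covered DESeq2 1.42.0, limma 3.58.1 (voom), scaling, filters, the cell rule, thinning, left-out mice and the replicate block. Coordinates come from GENCODE vM21, where all 487 genes looked up were found by identifier. The counts of each mouse were taken as 1 replicate: same-genotype mice differed by more than sampling noise (chi-square per degree of freedom 13.2 for *Angpt2*-WT and 4.67 for *Angpt2*-KO).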

Additional observations from a re-analysis of the deposited data

Results flagged for a closer look

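The effect of genotype differed between arterial and other ECs in 212 genes by edgeR's test of the difference itself. Differences are arterial minus other, on the log2 scale. Of the 11 named, *Cxcl10* stood at 3.57 (adjusted p = 0.0286), and all of its arterial UMIs in KO1 came from 1 cell. Without KO1 the difference was −0.94 (adjusted p = 0.82). *Hbb-y*, an embryonic globin gene of red blood cells, stood at 2.85 (adjusted p = 0.0475), but moved to 1.93 without KO1, 4.06 without KO2, 3.61 without WT1 and 2.04 without WT2, with adjusted p of 0.14 without KO1 and 0.334 without WT2. *Vcam1* stood at 1.41 and was called without any 1 mouse. *Cdk6*, a cell cycle kinase gene, stood at 1.36 (adjusted p = 0.00474), with 18.0, 22.8, 28.4 and 23.4 CPM in arterial cells and 30.9, 29.3, 12.3 and 16.7 CPM in other ECs of WT1, WT2, KO1 and KO2. *P2ry1*, a receptor gene for ADP, stood at 1.19 (adjusted p = 0.0278, and 0.152 and 0.155 without WT1 and WT2). The other ECs of the *Angpt2*-KO mice held 3.91 and 4.38 CPM of *P2ry1*, below the 11.5 and 11.3 CPM of the *Angpt2*-WT mice.

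In the other direction, *Gda* stood at −2.75, *S100a6* at −2.53, *Ica1l* at −2.34, *Cdh13* at −2.06, *Adm* at −2.03 and *Uchl1* at −1.85. Of these, *Gda* was called under every alternative tried. In KO1 1 cell held 44.3% of the arterial *S100a6* UMIs. *Adm* was not called without KO1 (−0.99, adjusted p = 0.071). With 2 mice per genotype no group was large enough to test for an outlying mouse.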

How the results depend on the processing

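With 50 genes called between genotypes in arterial cells (35 higher, 15 lower), 212 unequal effects (71 and 141) and a share difference of −4.72 points as reported, DESeq2 called 33 genes (18 higher). It gave an adjusted p for 732 of 10545 genes and the remaining 9813 stayed without one. For unequal effects it called 82 (22 and 60), or 75 (20 and 55) without independent filtering, an alternative chosen after seeing the data. limma-voom called 46 (37 higher, 9 lower). Without a filter on low counts the counts were 201 (116 and 85) and 407 (123 and 284). At least 4 arterial genes gave 26 (17 and 9), and dropping *Clu* gave 74 (48 and 26). The rule applied to thinned cells gave 3 (2 and 1) and a share difference of −2.32, and turned *Ccn2* to −0.26. Sums of thinned cells, also chosen after seeing the data, gave 15 (12 and 3) and 77 (26 and 51). With cells with a UMI of *Esm1* or *Apln* left out of the arterial sums, 18 genes were higher. Unequal effects then numbered 439 (149 and 290), but such cells stayed in the other ECs, so this count compares unlike sums. Leaving out each mouse gave 12 to 167 calls (8 to 106 higher, 4 to 61 lower), 121 to 631 unequal effects (32 to 229 and 87 to 402) and −6.76 to −2.69 points. Across the left-out mice *Eln* ran from −1.05 (without KO2) to 0.62 (without KO1), and the difference of effects for *Cxcl10* from −0.94 (without KO1) to 5.06 (without KO2). Unequal effects fitted with no mouse term numbered 2 (0 and 2). With the replicate block 185 genes were called (118 and 67). Among 59 uncalled genes followed through the alternatives, not all of them named here, *Nrp1* and *Fn1* were called with it (adjusted p = 0.00278 and 0.0478, edgeR). None of the 28 lost its call. The study mentions independent experiments, but the labels do not say that the numbers mark them, and deviations of same-numbered mice correlated at 0.13 (Pearson) and −0.036 (Spearman) over 10545 genes, and at −0.0109 (Pearson) over the 10539 left without *Xist*, *Tsix*, *Ddx3y*, *Eif2s3y*, *Kdm5d* and *Uty*, which are sex-linked. The causes were not tested. Of the 28 called genes named, 27 kept their direction throughout, *Cpe* and *Mbp* kept their call under every alternative tried for them, and 9 were called without any 1 mouse. Depth limits low genes. The 218 CPM of *Cpe* in KO1 rested on 406 UMIs, and genes at a few CPM there rested on far fewer.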

Other observations

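Some called genes fell outside the naming rule and were chosen after their values were seen. Fits without a mouse are not given for them, so their calls may rest on 1 mouse. *Cebpd*, a transcription factor gene of acute responses, was at 92.5, 104, 207 and 167 CPM in arterial cells of WT1, WT2, KO1 and KO2 (log2 fold change 0.93, adjusted p = 0.00857, edgeR). *F5*, the gene of coagulation factor V, was among the genes lowest in arterial cells relative to other ECs, and it rose from 2.63 and 2.90 to 14.0 and 11.9 CPM (log2 fold change 2.20, adjusted p = 0.0127), with 57.7% of its UMIs in KO1 from 1 cell. *Abcg1*, a sterol exporter gene, rose from 7.65 and 10.3 to 28.5 and 19.4 CPM (adjusted p = 0.0402), and *Me1*, the malic enzyme gene, rose from 10.0 and 8.45 to 27.9 and 20.4 CPM (adjusted p = 0.0327). *Cdkn2a*, a gene of cell cycle arrest, had 0 UMIs in the arterial cells of both *Angpt2*-WT mice and 8 in each *Angpt2*-KO mouse. These came from 3 cells of KO1 and 5 of KO2, and 1 cell held 50% and 37.5% of them. *Olfm5*, an olfactomedin gene, had 75 and 27 UMIs in the *Angpt2*-WT mice and 0 in both *Angpt2*-KO mice. *Cd74*, the invariant chain of antigen-presenting cells, was at 15.3, 7.39, 1.61 and 0.474 CPM (adjusted p = 0.0229), and in WT1 1 cell held 76.6% of its arterial UMIs.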
